A study of Macaca fascicularis with 6 samples.

Results

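The genes described here mark the endothelial cells of the liver. Of the 19775 genes that the array named by at least 1 probe set with a single gene symbol, 35 were chosen from a fixed list of endothelial genes, and all 35 had at least 1 such probe set, 75 in all. By general knowledge they were divided into 11 genes of the sinusoidal endothelium, 6 genes more typical of larger vessels and 18 genes found in most endothelium, called pan-endothelial below. GATA4 and FLT4 among the sinusoidal genes and EMCN and CAV1 among the large-vessel genes could be placed otherwise. Each gene was represented by the probe set with the highest mean signal over the arrays. That probe set reached the filter on dim signals, a mean of 129 over all arrays, for 31 of the 35 genes, and only these 31 were tested. CRHBP, PLVAP, SOX18 and EGFL7 were below the filter and are described by their signals alone.

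Liver RNA came from 6 cynomolgus macaques (Macaca fascicularis): 3 had been treated with an activating compound for LXR, the liver X receptor, and 3 with vehicle, with each animal on an array of its own. LXR is a nuclear receptor that is activated by oxidised cholesterol and switches on sterol efflux and lipid synthesis. The ligand arrays carry the letters GW in their titles. The identity of the ligand beyond these letters, its dose and duration, and the age and sex of the animals are not given in the sources used here. The probes were designed against human transcripts, so each gene is named by its human symbol, and 33 of the 35 symbols also occur in the macaque gene annotation, CLEC4M and CLEC1B being the 2 that do not. A piece of liver holds many cell types, and fewer cells of a type and less RNA per cell cannot be told apart in these values.

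Sinusoidal endothelial cells line the liver capillaries. They lack a basement membrane, have open pores, and clear waste molecules from blood through scavenger receptors and lectins. The endothelium of portal and central veins and of arteries is continuous and makes other surface proteins, among them CD34 and PLVAP. Both kinds share junction proteins and the receptors for vascular growth factors.

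The arrays were alike in scale, with a median signal of 129 to 139 on the ligand arrays and 111 to 139 on the vehicle arrays, in arbitrary units. Ligand array 1 stood apart on the leading principal component, which held 23.0% of the variance, with a score of -89.8 against 0.632 to 36.8 on the other 5 arrays. The 3' signal of a control transcript over its 5' signal, a sign of RNA quality, was on the log2 scale 1.17 to 2.05 on the ligand arrays and 0.991 to 1.70 on the vehicle arrays for GAPDH, and 2.62 to 4.003 and 2.15 to 3.06 for ACTB. Ligand array 3 had the highest ratio on both. The labelled tissue was checked against 10 hepatocyte markers. Their summed signal was 723375 to 784501 on the ligand arrays and 658314 to 786721 on the vehicle arrays. The dimmest of them had a mean of 4781 over all arrays.

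Most endothelial genes were higher on the log2 scale in animals given the ligand, and higher and lower refer to the mean log2 value below. Of the 31 tested members 25 were higher and 6 lower. By the mean of the linear signals 24 were higher and 7 lower, since FLT4, CD34 and F2R then had the lower mean with the ligand and CAV1 and CLEC1B the higher one. Their log2 differences had a median of 0.39, while over all 13349 genes tested 6713 were higher, with a median of 0.0027. All log2 differences are ligand minus vehicle on log2(signal + 16), a scale that understates the change of dim genes. No member passed limma's moderated test when p was adjusted by Benjamini-Hochberg over the full set of 27304 probe sets, and the members' adjusted p ran from 0.829 to 0.993. The same holds for the background: 0% of all genes passed, and 1523 of the 27304 probe sets had an unadjusted p under 0.05 in limma's test.

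An unadjusted p under 0.05 was reached by 7 of the 31 members, all 7 higher with the ligand, whereas 3.70% of all genes were higher and 2.42% lower at that level. For 6 members all 3 ligand arrays lay above all 3 vehicle arrays, and for none of the 31 did they lie below. Over all genes 6.21% were separated upward and 5.21% downward. For ICAM2, which is in both counts, only the ligand mean reached the filter, and for CLEC4M only the vehicle mean did. Over the 29 members whose ligand and vehicle means both reached the filter, 6 had an unadjusted p under 0.05 and 5 were separated upward, against 3.48% and 5.82% of the 12431 genes of that kind. The count of 7 members was 4 without ligand array 2 and 3 without vehicle array 1. Without ligand array 1, the array that stood apart, 27 of the 31 members were higher, with a median of 0.42 and again 7 members under 0.05. With no filter on dim signals, 27 of the 35 members were higher and their median was 0.35. The smallest p that an exact permutation test of 3 against 3 animals can give is 0.1, so single members cannot pass such a test.

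**Figure D1:**
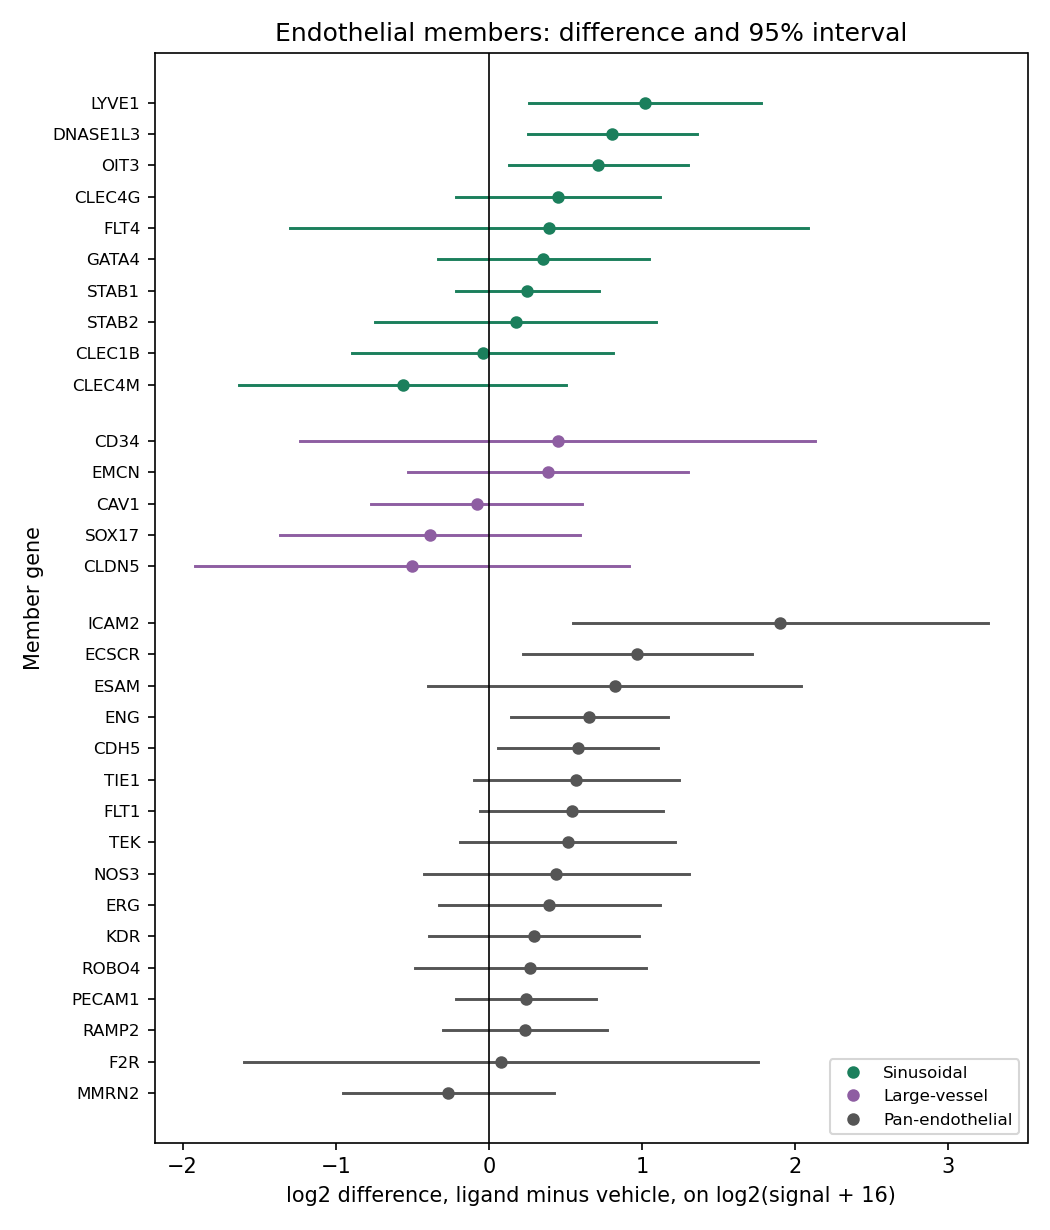
Log2 difference in signal, ligand minus vehicle, for the 31 tested members in their 3 groups. Points are estimates from limma and bars are 95% intervals. The intervals of DNASE1L3, LYVE1, OIT3, ICAM2, ECSCR, ENG and CDH5 lie above 0, and those of the large-vessel genes all span 0.

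Sinusoidal genes were mostly higher with the ligand. Of the 10 tested, 8 were higher and 2 lower. The median of their log2 differences was 0.37. An unadjusted p under 0.05 was reached by 3, all higher, where 3.70% of all genes were higher at that level. Leaving out vehicle array 2 gave a median of 0.20, and leaving out vehicle array 1 gave 0.56.

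LYVE1, a hyaluronan receptor of sinusoidal and lymphatic endothelium, had signals of 847, 811 and 1546 on the ligand arrays, against 365, 452 and 732 on the vehicle arrays. The lowest ligand array was above the highest vehicle array. The means were 1068 ± 415 with the ligand and 516 ± 192 with vehicle (SD, n = 3 each), and the fit gave a 2.03-fold difference, a log2 difference of 1.02 ± 0.34 (SE) and an adjusted p in limma's test of 0.829. A second LYVE1 probe set behaved alike, at 454, 572 and 821 on the ligand arrays against 218, 162 and 386 on the vehicle arrays, a log2 difference of 1.26.

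DNASE1L3 encodes a secreted nuclease that degrades DNA in circulating particles. Its signals were 7414, 7499 and 4719 on the ligand arrays, against 3919, 2817 and 4428 on the vehicle arrays, and the groups did not overlap, although ligand array 3 lay only just above vehicle array 3. The log2 difference was 0.81 ± 0.25 (SE), 1.75-fold, at limma adjusted p = 0.829. Its other probe set, below the filter at a mean of 76.0, had a log2 difference of -0.67.

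OIT3, a secreted protein made by liver, had signals of 1108, 1754 and 1794 on the ligand arrays, against 811, 852 and 1118 on the vehicle arrays. The groups touched, since ligand array 1 lay just under vehicle array 3. The log2 difference was 0.72 ± 0.26 (SE), 1.64-fold, at limma adjusted p = 0.840.

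The scavenger receptors STAB1 and STAB2, which take up modified lipoproteins and matrix fragments, differed less than LYVE1. STAB1 had signals of 2349, 2716 and 3238 on the ligand arrays, against 2126, 2157 and 2666 on the vehicle arrays, with a log2 difference of 0.25 ± 0.21 (SE). The groups overlapped, and the other 2 tested STAB1 probe sets had differences of 0.34 and 0.17. STAB2 scattered widely within each group, with 1482, 500.02 and 1294 on the ligand arrays and 575, 1118 and 1034 on the vehicle arrays, a log2 difference of 0.18 ± 0.41 (SE). The 95% intervals, -0.22 to 0.72 for STAB1 and -0.74 to 1.09 for STAB2, leave room for differences in either direction.

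The C-type lectins, which bind sugars on glycoproteins and pathogens, went in both directions. CLEC4G, a lectin of liver and lymph node sinusoids, had signals of 1002, 1318 and 1669 on the ligand arrays, against 1224, 646 and 1072 on the vehicle arrays, with a log2 difference of 0.45 ± 0.30 (SE). CLEC4M, a lectin that binds viral and bacterial sugars, had 83.6, 116 and 173 on the ligand arrays, against 140, 208 and 214 on the vehicle arrays, a log2 difference of -0.56 ± 0.48 (SE). CLEC4M is close in sequence to CD209, and human probes may read either gene in macaque RNA, so its identity is uncertain. CLEC1B, which is also a platelet receptor, had 283, 645 and 261 on the ligand arrays and 311, 335 and 502 on the vehicle arrays, a log2 difference of -0.039 ± 0.38 (SE). Each of these lectins overlapped between the groups.

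GATA4, a transcription factor that maintains sinusoidal identity and is also made by stellate cells, had a log2 difference of 0.35 ± 0.31 (SE), with 1248, 794 and 1742 on the ligand arrays and 1141, 743 and 965 on the vehicle arrays. Its other 2 tested probe sets disagreed, at 1.04 and -1.04. FLT4, the receptor for VEGFC, was dim at 119, 127 and 165 on the ligand arrays and 152, 19.5 and 242 on the vehicle arrays, and its error of 0.76 exceeded its log2 difference of 0.39. CRHBP, a binding protein for corticotropin-releasing hormone and a marker of liver sinusoids in humans, was below the filter, at 8.79, 19.6 and 4.21 on the ligand arrays and 29.5, 20.5 and 73.8 on the vehicle arrays. All 3 ligand arrays lay below the vehicle arrays, by little for array 2 of each group, and signals this low do not show whether the transcript was read at all.

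The large-vessel genes showed no common direction. Of the 5 tested, 2 were higher and 3 lower. Their log2 differences had a median of -0.080, none had an unadjusted p under 0.05, and the arrays of the groups overlapped for all 5. The sign of that median depended on the arrays used. Its middle gene was CAV1, and it was -0.27 when vehicle array 1 was left out and 0.24 when ligand array 1 was. With EMCN and CAV1 placed elsewhere, the median of the other 3 tested genes was -0.38.

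CD34, a sialomucin of continuous endothelium that sinusoids largely lack, had 410, 361 and 189 on the ligand arrays, against 38.7, 391 and 565 on the vehicle arrays. Its log2 difference of 0.45 ± 0.76 (SE) came with vehicle array 1 far below the others, and without that array it was -0.60. EMCN, an endothelial mucin, had 671, 1872 and 1806 on the ligand arrays and 869, 748 and 1541 on the vehicle arrays, a log2 difference of 0.39 ± 0.41 (SE). All 3 tested EMCN probe sets were higher with the ligand, the other 2 by 0.33 and 0.35.

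CAV1, the coat protein of caveolae, had 1281, 2110 and 3282 on the ligand arrays, against 2370, 1995 and 2222 on the vehicle arrays. Here the ligand arrays spread on both sides of the tight vehicle group, with a log2 difference of -0.080 ± 0.31 (SE) that was 0.26 without ligand array 1. SOX17, a transcription factor of arterial endothelium, had 257, 212 and 94.3 on the ligand arrays and 210, 288 and 206 on the vehicle arrays, with a log2 difference of -0.38 ± 0.44 (SE). Leaving out ligand array 3 brought it to 0.0093. CLDN5, a tight junction claudin, had 117, 88.4 and 568 on the ligand arrays and 379, 342 and 147 on the vehicle arrays, a log2 difference of -0.50 ± 0.64 (SE). PLVAP, the diaphragm protein of fenestrae and caveolae, was just below the filter and scattered, at 13.9, 105 and 309 on the ligand arrays and 136, 15.9 and 187 on the vehicle arrays. None of the large-vessel genes differed by more than the spread between animals.

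Nearly all pan-endothelial genes were higher with the ligand. Of the 16 tested, 15 were higher and 1 lower, and the median of their log2 differences was 0.48, which stayed between 0.37 and 0.57 when any single array was left out. An unadjusted p under 0.05 was reached by 4, and the same 4, ICAM2, ECSCR, ENG and CDH5, had groups that did not overlap, where 3.70% of all genes were higher at that level and 6.21% separated upward. Without ICAM2, which only its ligand arrays carried past the filter, both counts were 3 of 15.

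CDH5, ECSCR and ICAM2, 3 of these 4, were junction and adhesion genes, as were 9 of the 31 tested members. That role was assigned after values had been seen, and ICAM2 was tested only because of its ligand signals. CDH5, the cadherin that ties endothelial cells together, had 1796, 1944 and 1518 on the ligand arrays, against 1152, 942 and 1435 on the vehicle arrays. The groups did not overlap, with means of 1753 ± 216 and 1176 ± 247 (SD, n = 3 each) in ligand and vehicle animals and a log2 difference of 0.58 ± 0.23 (SE) and an adjusted p in limma's test of 0.873. ECSCR, a surface protein that regulates endothelial migration, had 523, 406 and 655 on the ligand arrays, against 196, 383 and 224 on the vehicle arrays, a log2 difference of 0.97 ± 0.34 (SE), 1.96-fold. Its other 2 tested probe sets were higher by 0.47 and 0.28.

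ICAM2, an adhesion molecule that leukocytes bind, had 245, 241 and 190 on the ligand arrays, against 28.9, 39.9 and 89.0 on the vehicle arrays, a log2 difference of 1.90 ± 0.61 (SE). All 3 ligand arrays and none of the vehicle arrays reached the filter value of 129, so the gene was tested because of its ligand signals, had to differ, and gives no fold of known size. The value depended on how dim signals were treated, with a log2 difference of 2.23 at a pseudocount of 1 and 1.34 at a pseudocount of 64, and a second, still dimmer probe set had -0.76.

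PECAM1, an adhesion protein of endothelium, platelets and leukocytes, differed little, at 2101, 1738 and 2326 on the ligand arrays and 1650, 1829 and 1688 on the vehicle arrays, a log2 difference of 0.24 ± 0.21 (SE). Its 95% interval ran from -0.21 to 0.70, and its other 2 tested probe sets were higher by 0.27 and 0.34. ESAM, another adhesion molecule of endothelial junctions, had a log2 difference of 0.82 ± 0.55 (SE), with 394, 228 and 273 on the ligand arrays and 150, 376 and 64.7 on the vehicle arrays. MMRN2, a matrix protein that binds growth factors, was the single tested pan-endothelial gene that was lower, at -0.26 ± 0.31 (SE).

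Growth factor receptors and other signalling receptors, FLT4 included, were higher on the log2 scale for 9 of 9 genes, with a median log2 difference of 0.39. By mean linear signal 7 of the 9 were higher, FLT4 and F2R being the other two. FLT4 was far below its other signals on vehicle array 2, and F2R was low on array 1 of both groups. ENG, a coreceptor for the TGF-beta family, had 1202, 1485 and 1497 on the ligand arrays, against 959, 726 and 959 on the vehicle arrays. The groups were well apart, with a log2 difference of 0.66 ± 0.23 (SE), 1.58-fold, at limma adjusted p = 0.829, and a second tested probe set at 0.95. FLT1, the decoy-like receptor for VEGFA, had 1047, 905 and 726 on the ligand arrays, against 490, 774 and 574 on the vehicle arrays, a log2 difference of 0.54 ± 0.27 (SE). The groups overlapped, but all 5 tested FLT1 probe sets were higher, the others by 0.58, 0.47, 0.18 and 0.068.

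TIE1 and TEK, receptors of the angiopoietin system, differed by 0.57 ± 0.30 and 0.51 ± 0.32 (SE) on the log2 scale. TEK had 341, 402 and 624 on the ligand arrays and 252, 321 and 347 on the vehicle arrays, and TIE1 had 905, 831 and 1465 on the ligand arrays and 739, 505 and 877 on the vehicle arrays. For both genes ligand array 3 was the highest of the 6 arrays. Their other probe sets, both below the filter, had log2 differences of -1.20 for TEK and 0.98 for TIE1. KDR, the main signalling receptor for VEGFA, had 668, 520 and 870 on the ligand arrays and 459, 783 and 446 on the vehicle arrays, and its log2 difference of 0.30 ± 0.31 (SE) was within its error. RAMP2, a partner of the adrenomedullin receptor, and ROBO4, a guidance receptor, differed by 0.24 ± 0.24 and 0.27 ± 0.34 (SE), and the other tested ROBO4 probe set by -0.32. F2R, a thrombin receptor, had a log2 difference of 0.077 ± 0.76 (SE). A second F2R probe set, below the filter, had 135, 164 and 143 on the ligand arrays, against 63.4, 38.7 and 48.9 on the vehicle arrays.

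Of the remaining pan-endothelial genes, the transcription factor ERG had a log2 difference of 0.40 ± 0.32 (SE), with its other 2 tested probe sets at 0.42 and -0.092. NOS3, which makes nitric oxide, had 251, 241 and 198 on the ligand arrays and 118, 188 and 198 on the vehicle arrays, a log2 difference of 0.44 ± 0.39 (SE). Here vehicle array 3 and ligand array 3 were level. SOX18, a transcription factor, and EGFL7, a secreted vascular factor, were below the filter, with signals of 14.3 to 131 and 30.4 to 72.3 on the ligand arrays and 14.7 to 97.4 and 32.6 to 135 on the vehicle arrays.

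Of the 31 tested members, 11 had further tested probe sets, 20 of them in all. Of these 20 further probe sets 17 were higher with the ligand, and for 7 of the 11 genes all tested probe sets lay on the same side. The 4 genes whose tested probe sets disagreed were GATA4, CAV1, ROBO4 and ERG. Probe sets below the filter are not in these counts and went in both directions, such as F2R at 1.31 and STAB1 at -0.87.

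**Figure D2:**
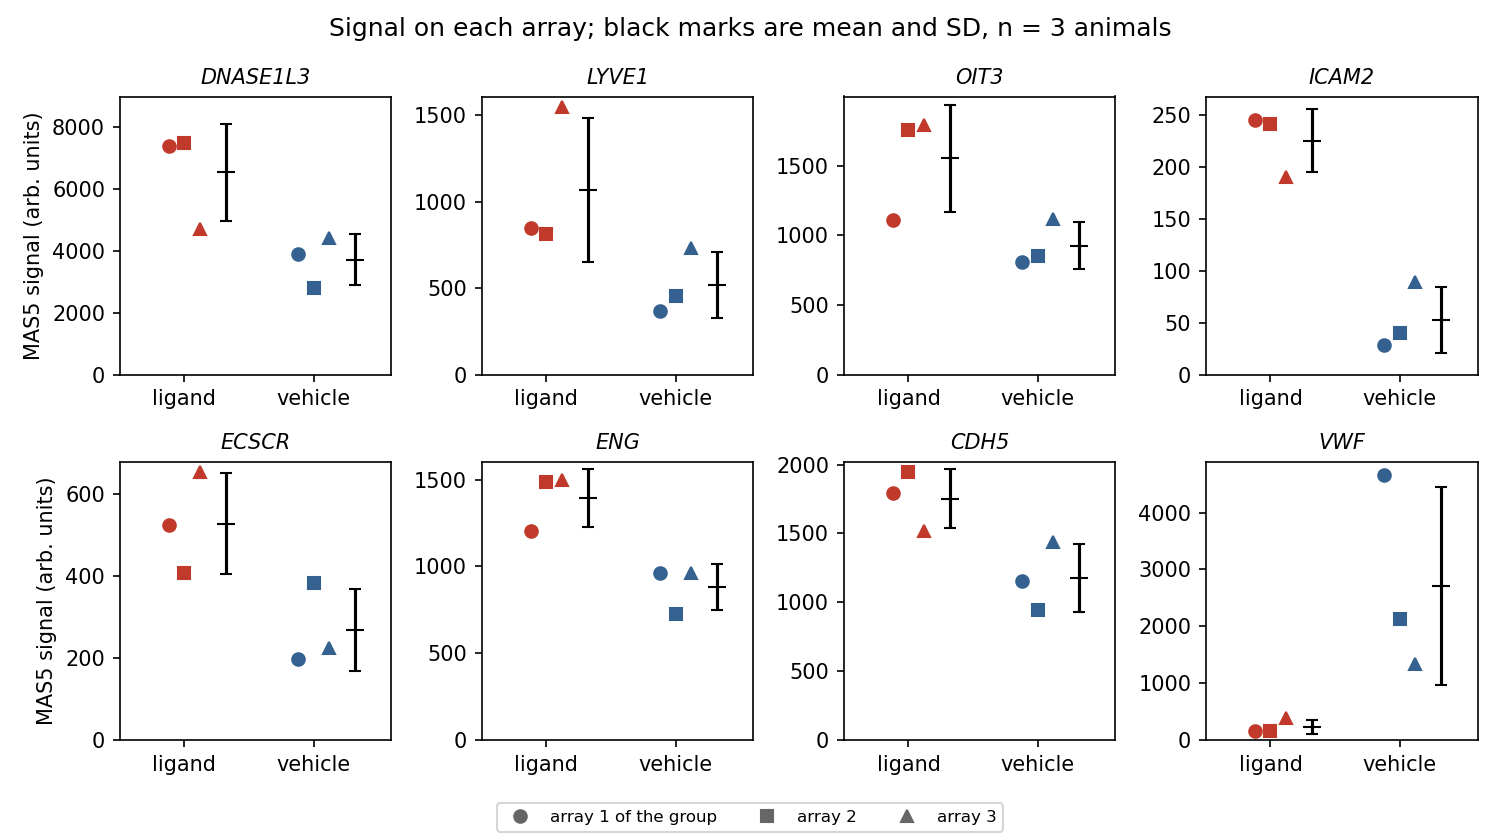
MAS5 signal on each of the 3 ligand arrays (left) and 3 vehicle arrays (right) for 8 genes, with the group mean and SD beside the points. All 3 ligand arrays lie above the vehicle arrays for DNASE1L3, LYVE1, ICAM2, ECSCR, ENG and CDH5, nearly so for OIT3, and below them for VWF.

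The members were also followed array by array, as the median over tested members of each gene's log2 deviation from its own mean over the 6 arrays. For the pan-endothelial genes this level was 0.15, 0.26 and 0.38 on ligand arrays 1 to 3, against -0.40, -0.040 and -0.11 on vehicle arrays 1 to 3. Vehicle array 1 was therefore the lowest for these genes, and it also had the lowest median signal of the 6 arrays, 111. With median centring of the arrays the pan-endothelial median difference was 0.43. In that setting 6 members, in place of 7, had an unadjusted p under 0.05 in limma's test. For the sinusoidal genes it was -0.030, 0.15 and 0.46 on the ligand arrays, against -0.24, -0.48 and 0.061 on the vehicle arrays, with vehicle array 2 lowest and an overlap between ligand array 1 and vehicle array 3. For the large-vessel genes it was -0.73, 0.069 and 0.62 on the ligand arrays, against 0.061, 0.48 and 0.060 on the vehicle arrays. Ligand array 3 had the highest level in all 3 groups of members and also the highest 3' to 5' ratios given above. The part of RNA quality in these levels was not tested.

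Markers of other cell types were read on the same arrays. All 12 tested macrophage markers were higher with the ligand. The median of their log2 differences was 0.64, and their per-array level was 0.31, 0.49 and 0.17 on the ligand arrays, against -0.17, -0.81 and -0.043 on the vehicle arrays. For MSR1 only the ligand mean reached the filter, and the other 11 were all higher, with a median of 0.71. The summed signal of 13 macrophage markers was 25694 to 32546 on the ligand arrays and 17239 to 22778 on the vehicle arrays. MARCO, a scavenger receptor, and C1QA and C1QB, chains of complement C1q, had the 3 lowest p among them, with log2 differences of 1.23 ± 0.22, 1.62 ± 0.34 and 1.24 ± 0.35 (SE). Some members, STAB1, LYVE1 and ENG among them, are also made by macrophages, and the part of macrophage RNA in the members' values was not tested.

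Of 12 stellate and fibroblast markers 9 were higher and 3 lower, and the median difference was 0.25. Their summed signal was 33985 to 48121 on the ligand arrays and 18337 to 28897 on the vehicle arrays. Their per-array level overlapped, at -0.13, 0.068 and 0.31 on the ligand arrays and -0.14, -0.52 and 0.14 on the vehicle arrays. The log2 differences of the 3 with the lowest p were 1.12 ± 0.29 for the collagen COL3A1, 0.62 ± 0.26 for the proteoglycan DCN and 0.72 ± 0.31 (SE) for the collagen COL1A2. The 3 lower ones were DES, COL1A1 and PDGFRB, at -0.97 ± 0.68, -0.22 ± 0.20 and -0.078 ± 0.27 (SE). For COL1A1 all ligand arrays lay below the vehicle arrays, and for DES only the vehicle mean reached the filter. The part of these cells in the members' values was not tested. Of 10 hepatocyte markers 5 were higher and 5 lower, with a median of -0.00084, and TF, FGB and CPS1, which encode transferrin, a fibrinogen chain and a urea cycle enzyme, had -0.71 ± 0.32, 0.25 ± 0.18 and -0.23 ± 0.22 (SE) by their brightest probe sets. The probe sets disagreed for TF, with 2 of 3 tested higher, and for FGB, with 1 of 2 higher. Platelet markers, 5 of 8 tested, had a median of 0.37 and overlapping sums of 1415 to 1568 on the ligand arrays and 1183 to 1643 on the vehicle arrays. Their 3 smallest p were those of GP6, ITGA2B and PF4, at 0.47 ± 0.52, 0.61 ± 0.74 and 0.37 ± 0.55 (SE). The other 2 tested, ITGB3 and GP1BA, were lower, at -0.18 ± 0.48 and -0.053 ± 0.32 (SE). Lymphocyte markers, 5 of 7 tested, had a median of 0.14, with MS4A1, CD79A and GZMB at 0.90 ± 0.68, 0.30 ± 0.28 and 0.14 ± 0.40 (SE). For MS4A1 only the ligand mean reached the filter. Bile duct markers, 4 of 6 tested, had a median of 0.12, with ANXA4, EPCAM and KRT7 at 0.62 ± 0.31, 0.89 ± 0.54 and -0.64 ± 0.45 (SE). No probe set on these arrays had a signal of 0, the lowest being 0.165, so a value of 0 could not mark an absent gene.

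Lymphatic endothelium, which shares LYVE1 and FLT4, was represented by 3 tested markers of 4, and all 3 were higher, with a median of 0.39. The untested marker, PDPN, had a mean of 106, below the filter, and went the other way, with a log2 difference of -1.64. It had 30.5, 52.7 and 44.3 on the ligand arrays, all below the 108, 183 and 219 on the vehicle arrays. RELN, a secreted glycoprotein also made by stellate cells, had 5793, 5474 and 7017 on the ligand arrays, against 4589, 3388 and 5200 on the vehicle arrays, a log2 difference of 0.49 ± 0.21 (SE). CCL21, a chemokine of lymphatic vessels, and PROX1, a transcription factor of lymphatic vessels that hepatocytes also make, had 0.39 ± 0.51 and 0.17 ± 0.27 (SE).

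**Figure D3:**
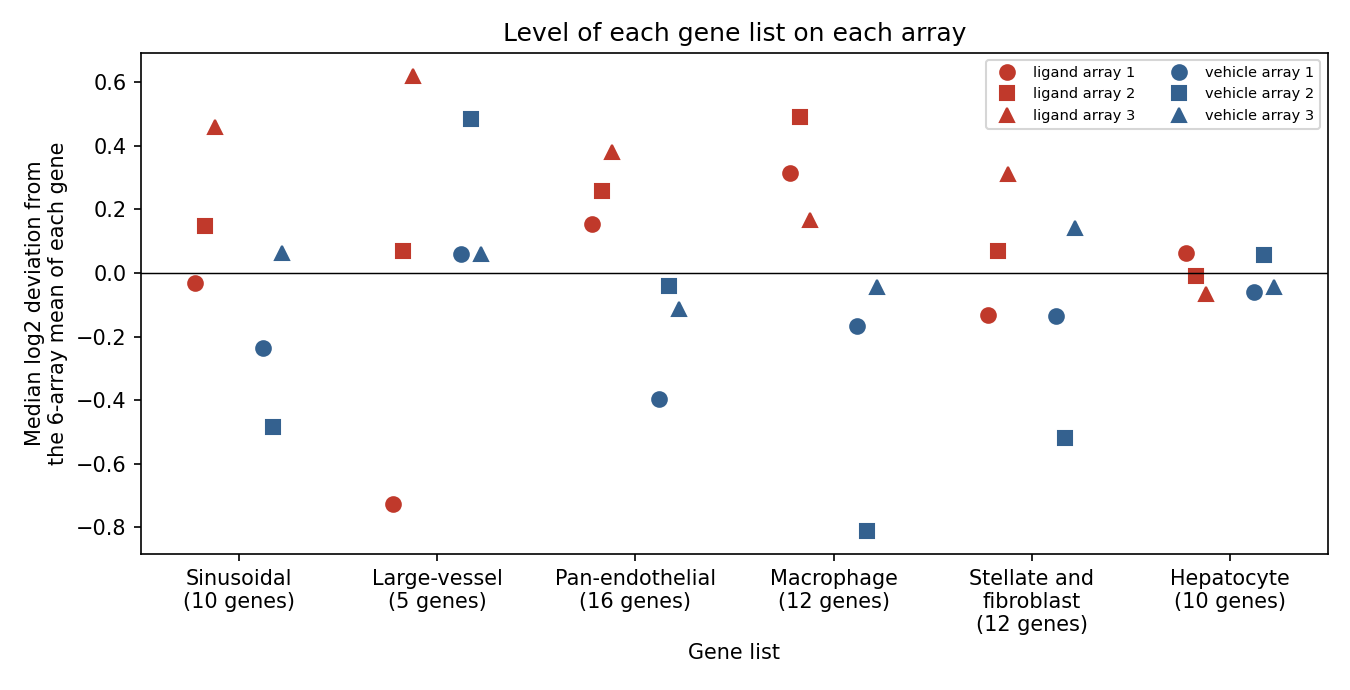
Level of 6 gene lists on each of the 6 arrays, as the median over the list of each gene's log2 deviation from its mean. Ligand arrays are drawn left of vehicle arrays within each list. All 3 ligand arrays are above the vehicle arrays for the pan-endothelial and macrophage lists, while the groups overlap for the other 4.

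The ligands, receptors and targets of the main endothelial signalling systems were then read from further lists, and were grouped by pathway after their values had been seen. None passed limma's test after adjustment. Beside each count below belong the 3.70% of genes higher and 2.42% lower with an unadjusted p under 0.05. Since the grouping followed the values, these shares give the background and are no test of a pathway.

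In the BMP and TGF-beta family 10 of 12 genes were higher, 5 of them with an unadjusted p under 0.05, and for 6 all ligand arrays lay above the vehicle arrays, as for 6.21% of all genes. These 12 genes include ENG, described above. For ACVRL1 and BMP10 only the ligand mean reached the filter, and without both 4 and 5 of the other 10 genes were in these counts. GDF2, which encodes the circulating factor BMP9 made by liver, had 843, 695 and 510 on the ligand arrays, against 448, 297 and 287 on the vehicle arrays. ACVRL1, the BMP9 receptor ALK1 of endothelial cells, had 395, 334 and 408 on the ligand arrays, against 26.1, 207 and 115 on the vehicle arrays. TGFBR2, the type II receptor for TGF-beta, had 3529, 2863 and 2782 on the ligand arrays, against 1606, 1470 and 1417 on the vehicle arrays. The groups did not overlap for any of these 3 genes, nor for ENG.

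Their log2 differences were 0.96 ± 0.30 for GDF2, 1.88 ± 0.58 for ACVRL1 and 1.02 ± 0.20 (SE) for TGFBR2, whose limma adjusted p of 0.387 was the smallest in that family. ID3, a transcriptional inhibitor switched on by BMP signals, had 1178, 1094 and 1149 on the ligand arrays, against 522, 272 and 763 on the vehicle arrays, a log2 difference of 1.23 ± 0.34 (SE). Other targets differed less, at 0.31 ± 0.28 for ID1, 0.24 ± 0.22 for SMAD6 and -0.041 ± 0.38 (SE) for SMAD7. Among the remaining BMP genes, the receptor BMPR2 had 0.30 ± 0.21 and was separated upward although only 2 of its 4 tested probe sets were higher, BMP2 and BMP10 had 0.15 ± 0.21 and 0.14 ± 0.57, and BMP6, which sinusoidal cells make to control iron, had -0.54 ± 0.32 (SE).

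In the VEGF system 8 of 9 genes were higher and none reached an unadjusted p under 0.05. VEGFA, the main ligand of KDR and FLT1, had a log2 difference of 0.36 ± 0.18 and VEGFC, the ligand of FLT4, 0.66 ± 0.31 (SE), and VEGFC was the single gene of the system whose groups did not overlap. VEGFB and PGF had -0.018 ± 0.34 and 0.028 ± 0.22 (SE). The coreceptors NRP1 and NRP2 had 0.19 ± 0.26 and 0.087 ± 0.35 (SE). In the angiopoietin system 4 of 5 genes were higher, with ANGPT1 at 0.31 ± 0.34, ANGPT2 at 0.96 ± 0.64 and the phosphatase PTPRB, which restrains TEK, at -0.030 ± 0.34 (SE). For ANGPT2 only the ligand mean reached the filter, and of the other 4 genes 3 were higher. Of the tested probe sets 1 of 3 was higher for PTPRB and 3 of 4 for VEGFA.

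In the Notch system 5 of 8 genes were higher and 3 lower, the 3 being the ligands DLL4, JAG1 and JAG2 at -0.35 ± 0.43, -0.31 ± 0.39 and -0.14 ± 0.41 (SE) by their brightest probe sets. The probe sets disagreed for JAG1, with 3 of 4 tested higher, and for JAG2, with 1 of 2 higher. The ligand DLL1 had 0.63 ± 0.30 and the receptors NOTCH1 and NOTCH4 had 0.22 ± 0.49 and 0.13 ± 0.28 (SE). The target HEY1 had 2952, 1391 and 1846 on the ligand arrays, against 1315, 1035 and 950 on the vehicle arrays, a log2 difference of 0.84 ± 0.29 (SE). HEY2 had 969, 1195 and 1078 on the ligand arrays, against 734, 286 and 957 on the vehicle arrays, a log2 difference of 0.86 ± 0.39 (SE). Both targets were separated upward.

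**Figure D4:**
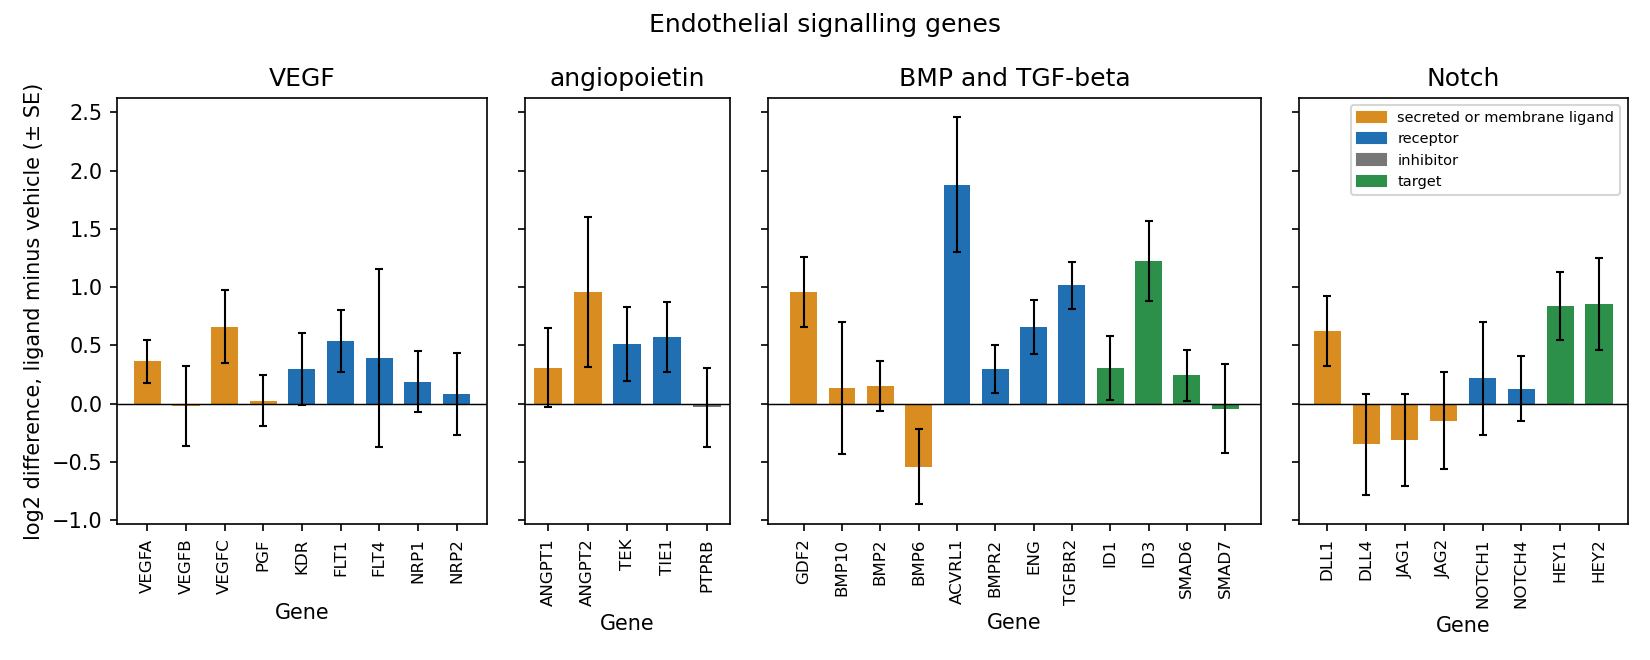
Log2 difference in signal, ligand minus vehicle, for genes of 4 endothelial signalling systems, drawn as bars with SE from limma and coloured by role. ACVRL1, ID3, TGFBR2 and GDF2 have the tallest bars of the BMP and TGF-beta panel, and the Notch ligands DLL4, JAG1 and JAG2 lie below 0.

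Across the whole lists, 14 of 20 tested ligands, 13 of 14 receptors and 12 of 18 transcription factors were higher with the ligand, with medians of 0.17, 0.26 and 0.28. For ANGPT2, BMP10 and ACVRL1 only the ligand mean reached the filter. Without them 12 of 18 ligands and 12 of 13 receptors were higher, with medians of 0.17 and 0.22. EPHB4, the ephrin receptor of venous endothelium, had 582, 723 and 995 on the ligand arrays, against 335, 229 and 317 on the vehicle arrays, 2.50-fold and a log2 difference of 1.32 ± 0.30 (SE) and an adjusted p in limma's test of 0.552, and both of its tested probe sets were higher. Its arterial partner EFNB2, named after its values were seen, had 0.89 ± 0.30 (SE) and groups that did not overlap. FLI1, a transcription factor related to ERG, had 0.70 ± 0.31 (SE), with all 3 tested probe sets higher. HHEX, a transcription factor of liver and vascular development that hepatocytes also make, was the single factor with all ligand arrays below the vehicle arrays, at 2757, 2199 and 1876 on the ligand arrays and 2891, 3145 and 3050 on the vehicle arrays.

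A further list held 27 tested endothelial markers that are no members, and 22 were higher and 5 lower. The median of their log2 differences was 0.26. TGM2, a crosslinking enzyme, had 0.97 ± 0.30 and GJA4, a connexin of arterial endothelium, 0.79 ± 0.26 (SE), although 1 of the 2 tested TGM2 probe sets was lower. VWF, the adhesive clotting factor stored by the endothelium of larger vessels and by platelets, ran against the list. It had 157, 156 and 377 on the ligand arrays, against 4667, 2129 and 1340 on the vehicle arrays, 10.5-fold lower with the ligand, and a log2 difference of -3.39 ± 0.47 (SE) and an adjusted p in limma's test of 0.319, the smallest of all probe sets tested. Leaving out any single array kept VWF between -3.80 and -2.91.

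Of the genes already described, 4 chosen after their values were seen were also set against the pan-endothelial genes of the same array by subtracting, on the log2 scale, the median of the 16 tested pan-endothelial genes. After this subtraction the difference between ligand and vehicle was 0.68 for LYVE1, 0.46 for DNASE1L3 and 0.37 for OIT3, and the groups overlapped for these 3 genes. It was -3.73 for VWF, whose groups stayed apart.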

How the data were processed

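Liver RNA of 6 macaques was read on Affymetrix arrays, 1 animal each, per the labels. The authors deposited linear intensity values, and the submitters' processing notes name MAS5; its version and scaling target are not given in the sources used here. The 2% trimmed mean was 500.1 on every array. Groups came from the sample titles. Of 54675 probe sets, 41097 had 1 gene symbol, 1801 several and 11777 none in the platform annotation, and a gene was named only from probe sets with 1 symbol.

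Values were transformed to log2(signal + 16), and the 27304 non-control probe sets whose mean signal reached the median over probe sets, 129, were tested, two-sided, with lmFit and eBayes with an intensity trend (limma 3.58.1, R 4.3.3), Benjamini-Hochberg adjustment over all of them and a threshold of 0.05. Log2 differences had a median SE of 0.35, and the number of arrays limits the precision. Figures used Python 3.11.15 and matplotlib 3.10.9.

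The members, their 3 groups and the other gene lists were chosen with earlier results of these data known, and the signalling systems and the roles were grouped after values had been seen. Genes given in full by rule are the 5 tested members of each group with the smallest limma p, those with non-overlapping groups, and 3 genes per other list by smallest p. Other members, and the other genes of the signalling systems, EFNB2 and HHEX, were described after their values were seen. Replicate numbers were not used to pair the samples in the main fit. The correlations of deviations between arrays of the same number were 0.040, -0.031 and 0.070, and 3 arrays per group cannot exclude a pairing. Each array was left out in turn. Other alternatives were the replicate block, averaging all probe sets of a gene, eBayes without trend or with robust estimation, median centring or quantile normalization of the arrays, a filter at the 75th percentile or none, pseudocounts of 1 and 64, and a threshold of 0.10.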

Additional observations from a re-analysis of the deposited data

How the results depend on the processing

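The number of members called was 0 under every alternative run, against 7 with an unadjusted p under 0.05 in limma's test. Leaving out single arrays took that count of 7 to between 3 and 7, and the number of probe sets called to between 0 and 1. The single probe set was SREBF1 without ligand array 2 and ACAA2 without vehicle array 2, neither a member and both named after their values were seen. With the replicate block 8 members had an unadjusted p under 0.05 and 0 probe sets were called, and 2 of the 3 ligand arrays correlated best with the vehicle array of their own number. The medians of the members and of their 3 groups moved by less than the spread between arrays in all 66 recomputations, although the large-vessel median changed sign in some. Under other eBayes settings or the replicate block the medians could not move at all. Chosen after seeing the data, a filter on both group means left 6 members with an unadjusted p under 0.05, all higher. Of all genes so filtered 3.48% were higher at that level. Placing GATA4 and FLT4 elsewhere, also chosen after seeing the data, gave a sinusoidal median of 0.35. The eBayes settings, the replicate block and the filters cannot change a single gene's log2 difference, so only the other alternatives bear on its direction. Of 220 recomputed values of 15 single members, these settings included, 217 kept their direction. The 3 that did not were CAV1, from -0.41 to 0.26 over single arrays left out, SOX17, from -0.65 to 0.0093, and CD34, from -0.60 to 1.10. The cause was not tested. With 3 animals in each group and human probes, dim members such as FLT4, CLEC4M, PLVAP and CRHBP had signals near the filter or below it, which limits what can be said of them.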
